A study of Oryzias latipes with 5 samples.

Results

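Described here are 12 medaka genes that bear symbols of cartilage matrix and other cartilage proteins, in cells that express the col10a1:nlGFP reporter. They were found by symbol in the deposited table, as the genes named matn1, matn3, matn4, acan, hapln1, cilp, comp, cnmd, snorc or ucma, with or without the suffix a or b that marks fish gene copies. The rule took 12 of 25689 genes, and no row carried the symbol snorc. The 12 genes are matn1, matn3a and matn4 among the matrilins, acanb for aggrecan, hapln1a and hapln1b for link proteins, cilp, comp, a pair of rows named cnmd, and ucmaa and ucmab.

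Messenger RNA was sequenced in 2 libraries of heterozygous mutants (genotype col10a1wt/mut, col10a1:nlGFP+/+) and 3 of wild-type siblings (col10a1wt/wt, col10a1:nlGFP+/+) of the medaka strain Cab at 10 days post fertilization. Every fish thus carried the reporter on both alleles, and the groups differed in col10a1, the gene for type X collagen, a collagen of hypertrophic cartilage. The submitters describe the cells as chondrocytes and osteoblast progenitors and the libraries as biological replicates, without saying how many fish each holds. The question is what a mutant col10a1 allele goes along with in these cells. Values are FPKM, in which the authors divided fragments by gene length in kilobases and scaled them to library size.

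In cartilage, aggrecan carries long chondroitin sulfate chains that hold water, and link protein locks aggrecan onto hyaluronan. Matrilins and COMP (cartilage oligomeric matrix protein) are adaptors that tie collagen fibrils to each other and to proteoglycans. CILP is a secreted protein of articular cartilage in mammals that can bind growth factors, chondromodulin (cnmd) is a membrane-anchored glycoprotein of avascular cartilage that inhibits vessel growth, and UCMA is a small secreted protein rich in gamma-carboxyglutamate. No sequence of these genes was used.

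The libraries held 24791662 to 28012092 recovered reads. One of the 2 mutant libraries stood apart: mutant library 2 had reads on 12334 genes, mutant library 1 on 21134, and the wild-type libraries on 19397 to 20692. The 13680 genes tested reached 1 FPKM in 2 or more libraries. Of these, 9019 were lower in the mutants and the median log2 difference was -0.31. Each limma estimate, interval and p-value below is set against no difference, so this general shift is not taken out of it. The difference against the wild-type mean had a median of -0.16 over all tested genes in mutant library 1 and -0.49 in mutant library 2. Listed markers of cartilage, with none of the 12 genes described here among them, summed to less than listed markers of bone. Most of the bone sum came from spp1, col1a2 and col1a1b. Sums over different genes do not compare amounts of tissue. The 13 measured genes from the chondrocyte list summed to 92.8 and 120 FPKM in the mutants and to 132 to 169 FPKM in the wild-type libraries. The largest part came from col11a2, at 40.7 and 54.7 FPKM in the mutants and 32.2 to 40.4 FPKM in the wild-type libraries. By log2 difference 10 of the 13 were lower in mutants and 3, col11a2 among them, higher. The 7 from the osteoblast list summed to 1758 and 1837 FPKM in the mutants and to 1753 to 2519 FPKM in the wild-type libraries. Transcripts of other tissues were present too. The 12 measured genes of gut, liver and pancreas, from 16 entries, summed to 59732 FPKM in mutant library 1, 19744 FPKM in mutant library 2 and 38997 to 46347 FPKM in the wild-type libraries, mostly from the apolipoprotein gene apoa1b. Of these 12 genes, the pancreatic enzyme genes ctrb1, ela2l, CEL and CPA1 had no read in mutant library 2. In mutant library 1, ctrb1, ela2l and CEL stood at 109, 75.7 and 27.4 FPKM, above every wild-type library (29.6 to 40.4, 19.5 to 29.6 and 6.57 to 19.9 FPKM). CPA1 there stood at 1.34 FPKM, within the wild-type range of 0.483 to 3.81 FPKM. The enzyme gene ela2 had 51.9 and 1.96 FPKM in the mutants against 14.3 to 22.9 FPKM in the wild-type libraries. Of the hormone genes of the pancreas, ins had 9.80 and 10.3 FPKM in the mutants against 0.315 to 0.369 FPKM in the wild-type libraries. GCG had 20.2 and 43.8 FPKM in the mutants against 14.1 to 23.4 FPKM in the wild-type libraries. The values of gcgb overlapped, at 1.57 and 2.12 FPKM in the mutants and 1.73 to 2.57 FPKM in the wild-type libraries. Muscle genes (6 measured) summed to 863 and 499 FPKM in the mutants and to 781 to 1118 FPKM in the wild-type libraries, and epidermal genes (5 measured) to 1194 and 577 FPKM in the mutants and to 704 to 1559 FPKM in the wild-type libraries. In a bulk sample, fewer cells of a type and less RNA per cell cannot be told apart, and the part of these other transcripts in the results below was not tested.

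The 12 genes spanned a wide range of levels. In wild-type libraries matn1 led with 124 ± 26.5 FPKM (SD, n = 3), rank 523 of 25689 genes, followed by hapln1b with 70.9 ± 14.1, hapln1a with 44.0 ± 16.4, cilp with 42.7 ± 1.12 and the cnmd gene on chromosome 17 with 36.4 ± 5.11 FPKM. A lower tier was formed by comp at 9.37 ± 3.18, matn4 at 6.79 ± 1.57 and acanb at 5.84 ± 0.1603 FPKM, rank 6638. The ranges of the wild-type libraries did not overlap between matn1 and hapln1b, between cnmd and comp, or between acanb and matn3a. Neighbours within hapln1b, hapln1a, cilp and cnmd, and within comp, matn4 and acanb, overlapped. The other 4 genes lay below the filter. matn3a averaged 0.702 FPKM, ucmaa 0.156 and ucmab 0.0545 FPKM in wild-type libraries, and the second row named cnmd, on chromosome 21, had no read in any of them. In the mutants the order by mean was matn1 at 38.8 ± 7.22 FPKM (SD, n = 2), then hapln1a at 32.7 ± 17.4, hapln1b at 32.5 ± 11.9, cilp at 19.1 ± 3.94, cnmd at 10.5 ± 11.6, comp at 2.76 ± 3.59, acanb at 2.57 ± 0.634 and matn4 at 1.41 ± 1.99 FPKM. In mutant library 2, hapln1a (45.0 FPKM) and hapln1b (41.0 FPKM) lay above matn1 (33.7 FPKM).

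**Figure D1:**
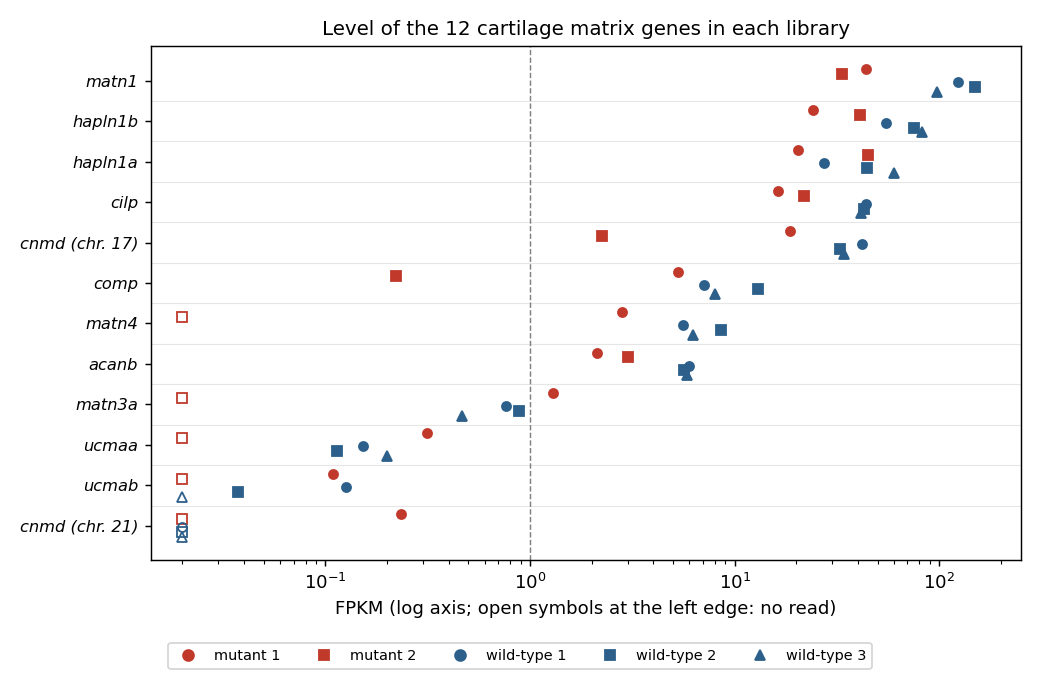
FPKM of the 12 cartilage matrix genes on a log axis, 1 symbol per library, mutants in red and wild-type siblings in blue; open symbols at the left edge had no read, and the dashed line marks 1 FPKM. matn1 is the highest gene in every library but mutant library 2, where hapln1a and hapln1b are higher. Mutant library 2 is at the left edge for matn4, matn3a, ucmaa, ucmab and the cnmd gene on chromosome 21.

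Of the 12 genes 8 passed the filter, and all 8 had lower mean log2 values in mutants than in wild-type siblings. None passed at an adjusted p under 0.05 in limma over all tested genes, where 0.00731% of tested genes (1 of 13680) passed. In 7 of the 8, all but hapln1a, both mutants lay below every wild-type library. That pattern was common, at 26.0% of all tested genes (3556). The same 7 genes had an unadjusted limma p under 0.05 with a lower value in the mutants, which 7.60% of tested genes (1040) had. The median log2 difference of the 8 genes was -1.38 beside -0.31 for all tested genes. Against the wild-type mean it was -1.07 for mutant library 1 and -1.38 for mutant library 2. Without mutant library 1 the median log2 difference was -1.38 for the 8 genes and -0.47 for all genes tested. Without mutant library 2 these medians were -1.07 and -0.16. The 8 genes had to be measurable in 2 libraries to enter, and they were chosen with earlier results known, so these counts and medians describe them and are no test. With 2 against 3 libraries, an exact two-sided permutation test cannot give less than p = 0.1.

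Among the matrilins, matn1 (ENSORLG00000011158, chromosome 11, 21862964 to 21870580, minus strand, 1492 bp of gene length) encodes matrilin-1, an adaptor of collagen fibrils first known as cartilage matrix protein. It had 43.9 and 33.7 FPKM in mutants, against 123, 150 and 97.3 FPKM in wild-type siblings. Both mutants were well below the lowest wild-type library, and the mutant mean was 0.314 of the wild-type mean. The gene's span touches a gene without a symbol on the same strand (ENSORLG00000028896), which averaged 0.0137 FPKM in mutants and 0.0865 in wild-type siblings. The values rest on 1642 and 1729 reads in the mutants and on 4399 to 6567 in the wild-type libraries. The log2 difference was -1.64 (SE 0.27, 95% interval -2.26 to -1.02). limma's unadjusted p of 0.000364 ranked 9 among all tested genes and was the smallest among those lower in mutants, but the adjusted p was 0.399. By log2 difference, 4.38% of all tested genes were as low as matn1 or lower. The exact permutation test gave p = 0.1.

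matn4 (ENSORLG00000026326, chromosome 5, 33035559 to 33066366, minus strand, 3152 bp), which encodes matrilin-4, a matrilin found more widely than cartilage, had 2.82 FPKM from 223 reads in mutant library 1 and no read in mutant library 2, against 5.57, 8.56 and 6.24 FPKM in wild-type siblings. At 3 reads its floor in mutant library 2 was 0.0276 FPKM, for counting error only. The absence of reads was frequent in that library at this level: of 2453 genes with a wild-type mean of 5 to 10 FPKM, 478 (19.5%) had no read in mutant library 2, and 1 had none in mutant library 1. The log2 difference of matn4 was -1.98 (SE 0.63, limma adjusted p = 0.399), and it was -1.01 in mutant library 1 alone. matn3a (ENSORLG00000012543, chromosome 24, 6512297 to 6519565, minus strand), the gene for matrilin-3, was below the filter with 1.29 and 0 FPKM in mutants and 0.761, 0.883 and 0.463 FPKM in wild-type siblings. The groups overlapped, and the gene's span overlaps laptm4a, a lysosomal membrane protein gene on the same strand at 74.1 FPKM in mutants and 85.7 FPKM in wild-type libraries, so its few reads are uncertain.

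The aggrecan and link protein genes act in one complex. acanb (ENSORLG00000001551, chromosome 6, 8422301 to 8436902, minus strand, 5775 bp) had 2.13 and 3.02 FPKM in mutants, against 5.98, 5.66 and 5.87 FPKM in wild-type siblings. The wild-type libraries had a coefficient of variation of 2.75%, and the mutants stood at 0.364 and 0.518 of their mean. Its log2 difference was -0.95 (SE 0.40, 95% interval -1.89 to -0.00054, limma adjusted p = 0.399). The library with few detected genes was here the higher of the mutants.

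hapln1b (ENSORLG00000001020, chromosome 12, 1939259 to 1960680, minus strand, 3603 bp), a link protein gene, had 24.1 and 41.0 FPKM in mutants and 55.1, 75.4 and 82.2 FPKM in wild-type siblings. Both mutants lay below the lowest wild-type library, with a mutant mean of 0.459 times that of wild type. The log2 difference was -1.13 (SE 0.31, 95% interval -1.85 to -0.40), with a limma adjusted p of 0.399. Its copy hapln1a (ENSORLG00000029206, chromosome 9, 14351324 to 14360912, minus strand, 4237 bp) had 20.4 and 45.0 FPKM in mutants and 27.3, 44.5 and 60.1 FPKM in wild-type siblings. The groups overlapped, mutant library 2 lay above 2 of the 3 wild-type libraries, and the log2 difference was -0.45 (SE 0.43, 95% interval -1.47 to 0.56, limma adjusted p = 0.566). It was -1.003 in mutant library 1 alone and 0.10 in mutant library 2 alone. Its interval includes both no difference and a decrease as large as that of hapln1b.

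Ratios of 2 genes within a library do not depend on how libraries were scaled. hapln1b stood at 1.18 and 0.911 times hapln1a in mutants, against 2.02, 1.69 and 1.37 times in wild-type siblings. The ranges did not overlap, while the exact two-sided permutation test on the log2 ratio gave p = 0.2, and reads shared between the copies could move this ratio. Against col2a1a, the gene for the type II collagen chain, hapln1b stood at 5.56 and 4.37 times in mutants and 4.94, 4.20 and 4.83 times in wild-type siblings, and these ranges overlapped. The deposited table has 2 rows named col2a1a, and ratios here use the one with the higher level (ENSORLG00000012738). Against the other (ENSORLG00000005102), hapln1b stood at 9.66 and 18.2 times in mutants and 8.79, 11.5 and 11.9 times in wild-type siblings, so mutant library 2 was highest. matn1 stood at 17.6 and 14.9 times that row in mutants and 19.6, 23.0 and 14.04 times in wild-type siblings, also overlapping. The ratio of acanb to hapln1b was 0.0883 and 0.0738 in mutants and 0.108, 0.0750 and 0.0714 in wild-type siblings, also overlapping. matn1 stood at 10.1 and 3.59 times the higher col2a1a row in mutants and 11.04, 8.38 and 5.72 times in wild-type siblings, so mutant library 2 was lowest and mutant library 1 lay within the wild-type range. The ratio of matn1 to col10a1a, a col10a1 copy, was 0.0108 and 0.00814 in mutants. In wild-type siblings it was higher, at 0.0229, 0.0207 and 0.0144 (exact permutation p = 0.1). The groups differ in col10a1, so col10a1a cannot be taken as a steady reference, and this ratio does not show how each gene differed.

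**Figure D2:**
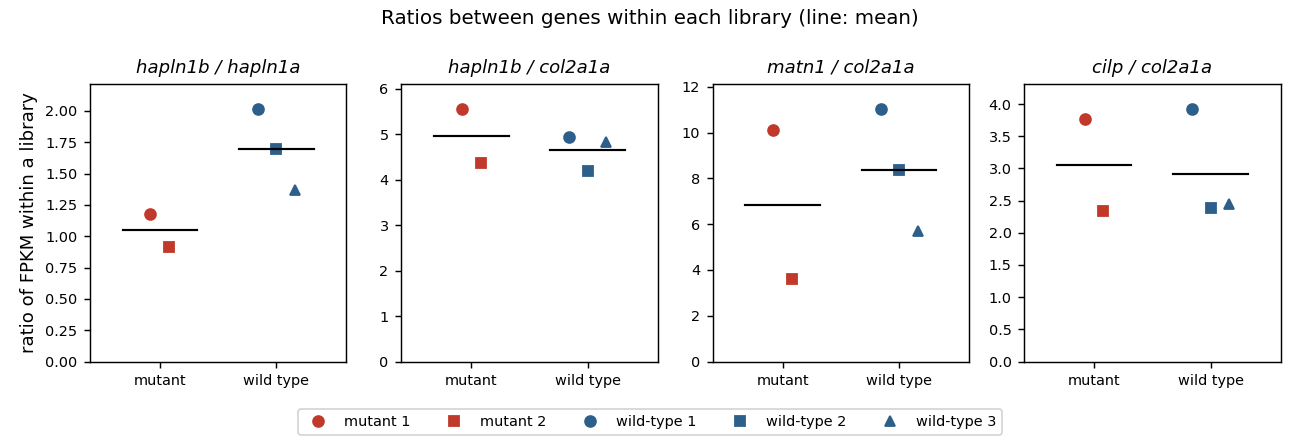
Ratio of FPKM between 2 genes in each library, mutants in red and wild-type siblings in blue, with the group mean as a line. The ratio of hapln1b to hapln1a is 0.911 and 1.18 in mutants and 1.37 to 2.02 in wild-type siblings, while the ratios to the higher of the 2 col2a1a rows overlap between the groups.

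cilp (ENSORLG00000006227, chromosome 3, 18387627 to 18394038, plus strand, 3650 bp) had the most even wild-type values of the 12 genes. It had 16.3 and 21.9 FPKM in mutants, against 43.8, 42.9 and 41.5 FPKM in wild-type siblings. The gap between the groups was wider than the range within either, and the mutant mean was 0.448 of the wild-type mean. Its wild-type coefficient of variation was 2.61%. The log2 difference was -1.13 (SE 0.25, 95% interval -1.72 to -0.54). limma's unadjusted p of 0.00242 ranked 29 among tested genes, with an adjusted p of 0.399.

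**Figure D3:**
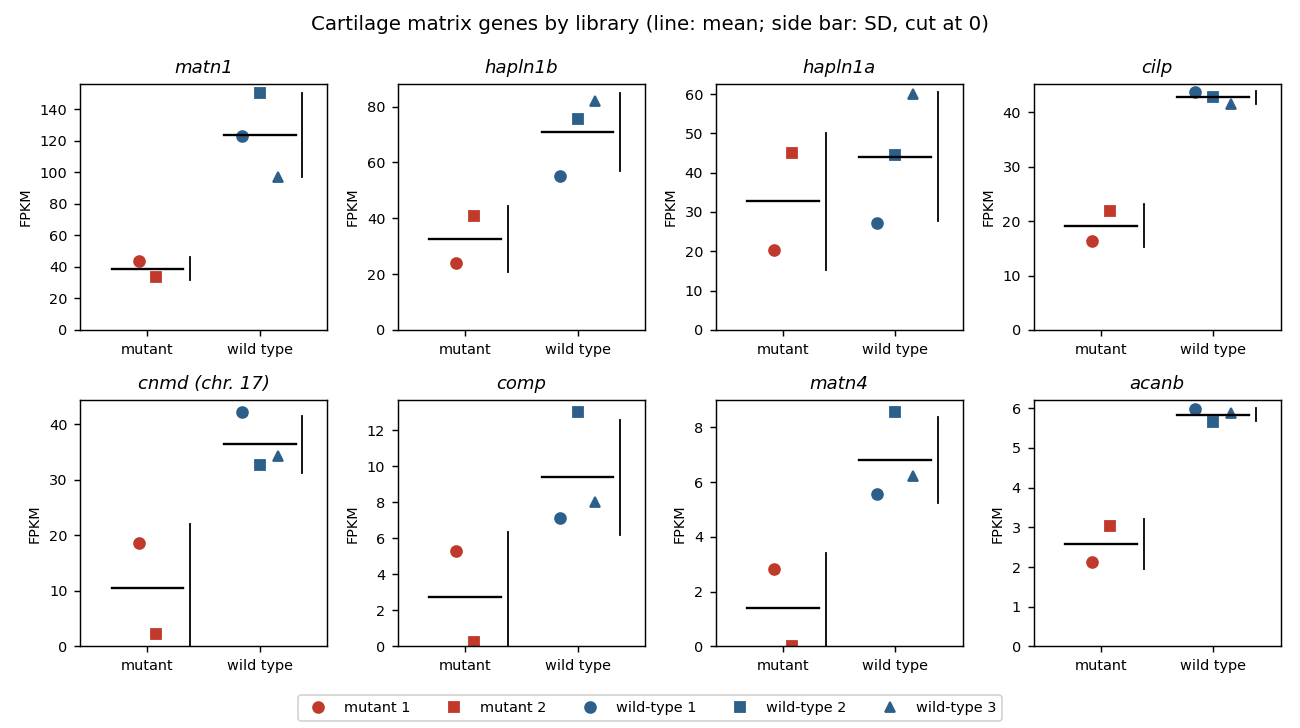
FPKM of the 8 tested genes, mutants in red at the left and wild-type siblings in blue at the right of each panel; lines are means, side bars SD (n = 2 and 3), and each axis starts at 0. Both mutants lie below every wild-type library in all panels but hapln1a, and cnmd, comp and matn4 show a wide gap between the mutants.

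The remaining pair of tested genes differed widely between the mutants. cnmd on chromosome 17 (ENSORLG00000011111, 17075911 to 17085103, minus strand, 3202 bp) had 18.7 and 2.25 FPKM in mutants, from 1501 and 248 reads, against 42.2, 32.7 and 34.2 FPKM in wild-type siblings. Mutant library 1 stood at 0.514 and mutant library 2 at 0.0619 of the wild-type mean. Its log2 difference of -2.21 (SE 0.67, limma adjusted p = 0.399) was -0.92 in mutant library 1 alone. comp (ENSORLG00000007858, chromosome 4, 13159758 to 13170058, plus strand, 2363 bp) bears the symbol of cartilage oligomeric matrix protein, a thrombospondin, but its description in the deposited table is thrombospondin-4. It had 5.30 and 0.221 FPKM in mutants, from 314 and 18 reads, against 7.11, 13.0 and 8.003 FPKM in wild-type siblings. Its log2 difference was -1.86 (SE 0.71, limma adjusted p = 0.399), and -0.68 in mutant library 1 alone. Values under 0.1 of the wild-type mean occurred in mutant library 2 for 341 of 3438 genes (9.92%) with a wild-type mean of 10 to 50 FPKM and for 650 of 2453 (26.5%) at 5 to 10 FPKM, and in mutant library 1 for 1 and 3 genes. The part of that sparseness in the values of cnmd, comp and matn4 was not tested. In mutant library 1 all 3 also lay below every wild-type library. The share of all tested genes that did so there was not counted, so this is not read as a result about the 3 genes. In that library 9201 of 13680 tested genes lay below the wild-type mean, which is a looser measure.

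**Figure D4:**
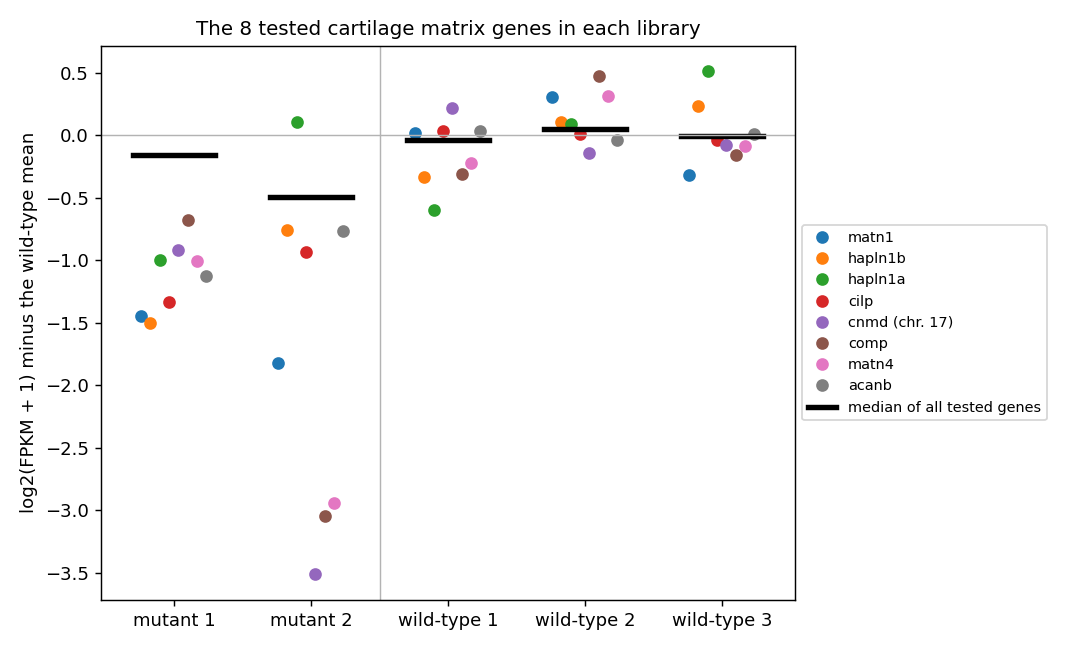
Log2(FPKM + 1) of the 8 tested genes minus their wild-type mean, by library, with the median of all tested genes as a black bar. In mutant library 1 the genes lie between -1.50 and -0.68 with the bar at -0.16, and in mutant library 2 they spread from -3.51 to 0.10 with the bar at -0.49.

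Both ucma genes were near the detection floor. ucmaa (ENSORLG00000027139, chromosome 23, 2753531 to 2764385, plus strand) had 26 reads in mutant library 1, none in mutant library 2 and 11 to 20 in wild-type libraries. ucmab (ENSORLG00000003954, chromosome 6, 13672840 to 13679632, minus strand) had 5 and 0 reads in mutants and 6, 2 and 0 in wild-type siblings. The cnmd gene on chromosome 21 (ENSORLG00000021908, 23768158 to 23787426, plus strand) had 11 reads in mutant library 1 and none in mutant library 2 or any wild-type library. No difference could be read at these depths. The spans of ucmaa, ucmab and this cnmd gene overlap mcm10, CDK17 and ednrbb, each on the opposite strand, and no source used here gives the strand setting of the counting.

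**Figure D5:**
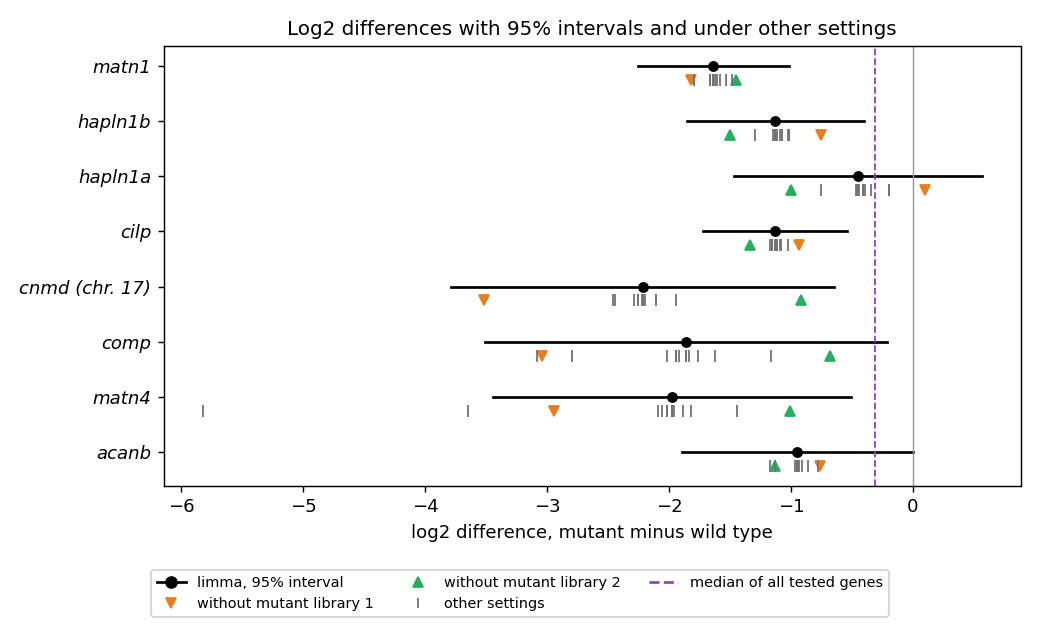
Log2 difference, mutant minus wild type, of the 8 tested genes: points and lines are limma estimates with 95% intervals, marks below them other settings, triangles the fits without 1 mutant library, and the dashed line the median of all tested genes (-0.31). The marks stay left of 0 for all genes but hapln1a, which lies at 0.10 without mutant library 1.

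Other cartilage genes were counted from lists. Of 8 tested collagens of cartilage, none passed in either direction, 7 were lower and 1 higher, with a median log2 difference of -1.14. The type IX collagen genes col9a1a and col9a2 stood at 8.80 ± 0.0148 and 7.41 ± 0.398 FPKM in mutants (SD, n = 2) and at 21.8 ± 5.63 and 21.3 ± 4.36 FPKM in wild-type siblings (SD, n = 3). The col2a1a row with the higher level stood at 6.85 ± 3.57 FPKM in mutants and 15.4 ± 3.69 in wild-type siblings. The other row of that symbol had 2.49 and 2.25 FPKM in mutants against 6.27, 6.54 and 6.93 FPKM in wild-type siblings (log2 difference -1.17, limma adjusted p = 0.399). col11a2, a type XI collagen chain, stood at 47.7 ± 9.91 FPKM in mutants and 35.1 ± 4.60 in wild-type siblings. Of 19 other cartilage matrix genes none passed, 16 were lower and 3 higher, and the median was -0.53. Among these, the small leucine-rich proteoglycan aspn stood at 50.9 ± 9.26 FPKM in mutants and 108 ± 19.5 in wild-type siblings, its relative bgnb at 133 ± 11.6 and 157 ± 22.0, the Wnt inhibitor frzb at 65.8 ± 5.46 and 107 ± 13.1, and fibina at 180.5 ± 45.1 and 157 ± 5.14 FPKM.

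By list median, cartilage transcription factors and genes for chondroitin sulfate synthesis, aggrecanases and hyaluronan lay closer to the median of all genes than the 8 genes did. Single transcription factor and synthesis genes were as low as some of the 8 genes. Of 13 cartilage transcription factors none passed, 9 were lower and 4 higher, with a median log2 difference of -0.30. Of 22 genes for chondroitin sulfate synthesis none passed, 12 were lower and 10 higher, with a median of -0.07. Among these b4galt7, a galactosyltransferase of the linkage region, stood at 53.3 ± 9.43 FPKM in mutants (SD, n = 2) and 41.2 ± 8.82 in wild-type siblings (SD, n = 3), and slc35d1b, a nucleotide sugar transporter, at 41.7 ± 6.29 and 35.4 ± 6.26 FPKM. usta stood at 60.9 ± 0.0682 FPKM in mutants and 66.0 ± 13.2 in wild-type siblings, and chst3b, a chondroitin sulfotransferase, at 34.8 ± 14.8 and 32.5 ± 9.51 FPKM. Of 7 genes for aggrecanases and hyaluronan none passed, 4 were lower and 3 higher (median -0.03), with the protease adamts1 at 5.59 and 22.6 FPKM in mutants and 11.6 to 16.8 FPKM in wild-type siblings.

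Relatives of the described genes outside the rule were a mixed group. Of 15 measured, 7 were tested, none passed, 6 were lower and 1 higher, and the median was -0.20. tnmd, for tenomodulin, the tendon relative of chondromodulin, had 6.73 and 6.04 FPKM in mutants, against 13.0, 15.9 and 13.5 FPKM in wild-type siblings. Both mutants lay below every wild-type library, and mutant library 2 was not apart from mutant library 1 as it was for cnmd. cilp2 had 1.36 and 5.40 FPKM in mutants and 2.63, 5.82 and 2.39 FPKM in wild-type siblings, so the groups overlapped for cilp2 and not for cilp. The thrombospondin genes thbs1b, thbs4a and thbs4b differed by -0.20, 0.19 and -0.20 on the log2 scale. thbs1 differed by -0.31. thbs2a differed by -1.10, with 0.844 and 0 FPKM in mutants against 1.57 to 2.15 FPKM in wild-type siblings.

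Profiles most like those of matn1, hapln1b and cilp were sought among the 3802 named and tested genes that averaged 10 FPKM or more, as the smallest root-mean-square difference of mean-centred log2(FPKM + 1) over the 5 libraries. For hapln1b the nearest was the higher col2a1a row, at 0.0994, then postn (periostin) at 0.190 and a-sdf1a, a chemokine gene by its description, at 0.236. For matn1 they were itih1, described as an inter-alpha-trypsin inhibitor heavy chain (0.174), col9a2 (0.226) and angptl4 (0.227). For cilp they were si:ch211-251b21.1 (0.158), a glutamate receptor by its description, the mRNA decay gene zfp36l2 (0.195) and tnmd (0.202). These likenesses rest on 5 libraries and include the shift between libraries that many genes share.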

How the data were processed

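Gene-level FPKM of 5 libraries were used as deposited by the authors, with the gene length, coordinates and symbol in the same table. HISAT2 2.0.5 and featureCounts 1.5.0-p3 are named in the submitters' processing notes. No source used here gives a genome build, annotation or strand setting, and coordinates were copied from the deposited table. FPKM times gene length fell on whole steps, within 0.02 reads for 100% of values, which gave recovered reads. The implied denominator was 0.980 and 1.23 times these totals in mutant libraries 1 and 2 and 1.04 to 1.08 times in wild-type libraries. Floors of 3 reads cover counting error only.

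The test was limma 3.58.1 (R 4.3.3) on log2(FPKM + 1), by empirical Bayes with a trend and no covariate. It covered 13680 genes that reached 1 FPKM in 2 or more libraries, with Benjamini-Hochberg adjustment, a threshold of 0.05 and 95% intervals. Fold changes of low genes are understated on that scale. Exact permutation tests and counts used python 3.11.15 with numpy 2.4.6 and pandas 2.3.3, and plots matplotlib 3.10.9. The procedure was tested on simulated data without a sparse library, so that test does not cover a library like mutant library 2. Each limma p-value sets the mean difference against the spread between these libraries. That spread is shared by both genotypes and drawn toward a trend across genes, although mutant library 2 is sparser.

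The genes and lists were chosen with earlier results of these data known, and gene ratios after values were seen. The rule named all 12 genes, up to 4 genes of highest mean per list and the 3 nearest profiles. Named after values were seen were cilp2, MATN2, thbs1, thbs2a, the lower col2a1a row, the pancreatic enzyme and hormone genes and chromosomal neighbours. Alternatives were another pseudocount, filters, scalings, array weights, no trend, a replicate block, voom and leaving out each library. Rescaling to recovered totals was added after seeing the data.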

Additional observations from a re-analysis of the deposited data

How the results depend on the processing

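Over 16 alternatives for each of the 8 tested genes, 119 of 128 results kept their direction and missed the threshold as before. hapln1a reversed once, at 0.10 without mutant library 1, in a range of -1.003 to 0.10 when 1 library was left out. The other 8 passed the threshold, 2 with the replicate block and the rest without mutant library 1. In the latter fit the sparse library is the only mutant and is assumed to vary like the wild-type ones, so passing there is not read as a result. The number of genes called ran from 1 to 7239 when 1 library was left out, 7239 without mutant library 1 and 2 without mutant library 2. With the replicate number as a block over 4 libraries 134 genes passed, matn1 (-1.80) and cnmd (-2.25) among them, against 1 in the same libraries without it. The SE of matn1 was larger with the block (0.36) than without it (0.31). With so few libraries, the block fit draws its spread almost wholly from other genes, so passing there is not read as a result either. The deviations of same-numbered libraries correlated at 0.0246 across genes. Only 2 numbers are shared and 1 of the mutants is the sparse library, so this cannot show whether same-numbered libraries belong together. The median of the 8 genes was -1.28 with median-of-ratios scaling (all genes -0.23), -1.14 with quantile normalization (all genes 0.01) and -1.47 to -1.07 when 1 library was left out. Without mutant library 2 all 8 genes lay below every wild-type library. Under all other settings run, 7 did. The share of all tested genes with that pattern was counted only in the main fit, at 26.0%. A lone mutant library reaches it more easily than both together, and the share for mutant library 1 alone was not counted. By the looser measure of lying below the wild-type mean, 9201 of 13680 tested genes did so in mutant library 1. The estimate for matn4, at 0 in 1 mutant, ran from -5.83 (voom on reads) to -1.01 over the alternatives, that of comp from -3.09 to -0.68 and that of cnmd from -3.51 to -0.92, where -0.68 to -1.01 are the values without mutant library 2. The values of matn1 ran from -1.82 to -1.45, of hapln1b from -1.50 to -0.76, of cilp from -1.33 to -0.93 and of acanb from -1.17 to -0.76. The causes of these shifts were not tested.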

Other observations

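Link protein genes lie beside genes of the aggrecan family in vertebrates, and the deposited coordinates show such pairs for acanb and hapln1a but not for hapln1b. acanb has hapln3 at 2306 bp, and hapln1a has a gene without a symbol that the table describes as versican (ENSORLG00000009876) at 1918 bp. hapln1b lies between pargl at 4717 bp and cetn3 at 6788 bp, neither of the aggrecan family. The partners of acanb and hapln1a were at very low levels: hapln3 averaged 0.0182 FPKM in mutants and 0.126 in wild-type siblings, and the versican gene 0.0311 and 0.0624 FPKM. A second gene described as aggrecan core protein but without a symbol (ENSORLG00000000100) had 17 and 0 reads in mutants and 47, 84 and 39 in wild-type siblings, so acanb gave nearly all aggrecan reads. These genes were looked at after the values were seen.

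Genes next to the 8 tested genes differed in their patterns. sesn2 (sestrin-2), 1652 bp from matn1, had 4.65 and 17.8 FPKM in mutants, above 2.68, 2.32 and 1.90 FPKM in wild-type siblings. SDC3 (syndecan-3), 17554 bp on the other side of matn1, had 54.4 and 37.7 FPKM in mutants, below 56.2, 68.9 and 56.7 FPKM in wild-type siblings, as matn1 was. tmem38a, 2146 bp from comp, was also lower in both mutants, at 31.2 and 24.6 FPKM against 37.4, 53.5 and 48.5 FPKM in wild-type siblings. So were crtc1b on the other side of comp (1.05 and 0 against 2.02 to 2.85 FPKM) and pargl beside hapln1b (1.35 and 0 against 2.64 to 5.07 FPKM). At wild-type means of 1 to 5 FPKM, 40.11% of genes had no read in mutant library 2. Both mutants lay below every wild-type library in 26.0% of all tested genes. sugt1, 154 bp from cnmd, had 17.3 and 17.8 FPKM in mutants and 17.01, 18.2 and 17.6 FPKM in wild-type siblings. PCDH8 (protocadherin-8), 1402 bp on the other side of cnmd, had 1.12 and 19.6 FPKM in mutants and 0.958, 0.780 and 1.23 FPKM in wild-type siblings. It was high in mutant library 2 only, where cnmd was lowest. igdcc3, 38972 bp from cilp, was also high in that library only, at 0.470 and 9.44 FPKM in mutants against 0.432 to 1.07 FPKM. There cilp was the higher of the mutants. MATN2 was low and uneven, at 0.524 and 0.00979 FPKM in mutants and 0.247, 1.81 and 0.178 FPKM in wild-type siblings.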
